A study of Homo sapiens with 6 samples.

Results

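The human ALKBH family and FTO were followed at gene and transcript level in THP1, an established human monocytic line with an MLL fusion, derived from acute myeloid leukaemia. The 9 genes are ALKBH1 to ALKBH8 and FTO, out of 34905 annotated genes with quantified transcripts, and they were taken by name, not by any measured value. All 9 passed the filter on low counts, among 14497 genes tested. Polyadenylated RNA was measured in 6 libraries, with n = 2 for each of 3 groups. The groups are a hairpin control with genotype wild-type (shCtrl), a hairpin group with genotype ALKBH5 knock-down (shALKBH5), and a group with genotype ALKBH5 rescue. The study asked what loss and return of ALKBH5 do to the transcripts of these leukaemia cells. The sources used here do not give the hairpin, the rescue construct, its promoter or whether the cells were clones. The labels number the libraries 1 and 2 within each group, without saying what a number stands for or that replicates were separate cultures, and every p-value reflects only how far these libraries vary, which may be technical variation.

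These proteins share a catalytic fold that uses iron and 2-oxoglutarate to oxidise methyl groups or nearby carbons on nucleic acids and proteins. ALKBH5 and FTO remove N6-methyladenosine (m6A) from RNA, and FTO also acts on the dimethylated cap nucleotide m6Am. ALKBH2 and ALKBH3 repair alkylated bases in DNA, ALKBH3 also in RNA, and ALKBH1 acts on modified transfer RNA. ALKBH4 is known for demethylating actin, ALKBH7 is a mitochondrial member linked to programmed necrosis, and ALKBH8 modifies the wobble uridine of transfer RNA. In myeloid leukaemia, ALKBH5 and FTO have both been studied as enzymes on which the leukaemia cells depend.

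The starts of 3 members are shown because these genes passed the threshold between the libraries numbered 1 and 2 in every gene-level fit tried. ALKBH5 and FTO were higher and ALKBH4 lower in number 2. Each run covers 250 bases before to 50 after the start in RefSeq, build GRCh38.p14, 5′ to 3′ on the gene's strand. Capitals mark matches, on either strand, to 4 motifs that were searched. The CCAAT box was the first of them, and the GC box was written as GGGCGG. The TATA box was written as TATAAA, and the site type bound by ETS factors as CCGGAAG. The windows are chr17:18183578-18183877 on the plus strand for ALKBH5, chr7:102464814-102465113 on the minus strand for ALKBH4, and chr16:53703906-53704205 on the plus strand for FTO.
ALKBH5: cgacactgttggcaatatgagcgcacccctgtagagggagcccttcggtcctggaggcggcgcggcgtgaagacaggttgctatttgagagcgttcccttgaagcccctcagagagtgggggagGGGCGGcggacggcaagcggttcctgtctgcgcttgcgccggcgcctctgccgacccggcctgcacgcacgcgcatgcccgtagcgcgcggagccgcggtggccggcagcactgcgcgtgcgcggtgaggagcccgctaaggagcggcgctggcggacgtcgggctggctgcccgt
ALKBH4: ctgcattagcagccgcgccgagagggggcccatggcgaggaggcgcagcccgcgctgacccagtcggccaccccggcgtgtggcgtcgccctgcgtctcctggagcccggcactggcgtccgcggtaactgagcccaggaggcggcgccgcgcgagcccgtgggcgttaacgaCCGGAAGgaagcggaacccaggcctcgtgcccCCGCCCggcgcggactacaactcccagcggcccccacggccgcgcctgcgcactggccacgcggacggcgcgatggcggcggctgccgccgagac
FTO: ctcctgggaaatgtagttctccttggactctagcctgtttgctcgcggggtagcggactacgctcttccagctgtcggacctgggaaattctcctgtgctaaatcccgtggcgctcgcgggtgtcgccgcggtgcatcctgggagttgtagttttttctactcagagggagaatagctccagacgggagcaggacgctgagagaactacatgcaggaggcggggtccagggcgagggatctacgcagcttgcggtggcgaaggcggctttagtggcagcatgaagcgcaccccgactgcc
ALKBH5 and ALKBH4 hold the GC box, as do ALKBH2 and ALKBH6, and so do 44.95% of the 35116 RefSeq promoters of this length. The ETS-type letters occur in ALKBH1, ALKBH2, ALKBH3 and ALKBH4 (10.26% of all promoters), and CCAAT in ALKBH3, ALKBH6, ALKBH7 and ALKBH8 (34.61%). The TATA box (11.53%) matched no member, and the FTO window matched none of the 4. The ALKBH5 window is 71.0% G and C with 39 CpG dinucleotides, and that of ALKBH4 76.67% with 46, against medians of 58.67% and 14 over all promoters. FTO lies nearer those medians, at 60.0% and 22. All 9 members had an entry in the table, ALKBH6 with a pair of starts.

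ALKBH5, the gene the study targeted, split the libraries by number and not by label. Estimated counts scaled by library size (CPM) were 14.6 in shCtrl, 12.4 in shALKBH5 and 13.6 in ALKBH5 rescue among the libraries numbered 1. The same groups gave 1097, 1003 and 968 CPM among those numbered 2. The 3 libraries numbered 1 were low and the 3 numbered 2 high, with no overlap, in every group including the control. These levels rest on 202, 217 and 312 estimated counts in number 1 and on 20608, 19116 and 15733 in number 2. The level of the targeted gene therefore does not follow the labels, and directions between groups refer to what each library is labelled.

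Number 2 against number 1 was fitted with terms for group and number over all 14497 genes in edgeR's quasi-likelihood test. ALKBH5 was higher in number 2 by 6.24 on the log2 scale (SE 0.11, 95% interval 6.001 to 6.478, 75.6-fold, edgeR adjusted p = 1.51e-09). Within shCtrl, shALKBH5 and ALKBH5 rescue the log2 differences were 6.22, 6.33 and 6.15. ALKBH5 had the smallest p of all genes tested and the third largest rise. The genes with larger rises, the pseudogene RPL21P16 and AC010487.3, were at 0 in all 3 libraries numbered 1 and in the shCtrl library numbered 2, and are named after their values were seen. The number difference touched much of the transcriptome: 6585 genes (45.4%) passed the threshold of 0.05. DESeq2 called 4793 of the 13372 genes to which it gave an adjusted p (35.8%). In bulk RNA, fewer cells with a transcript and less of it per cell cannot be told apart.

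**Figure D1:**
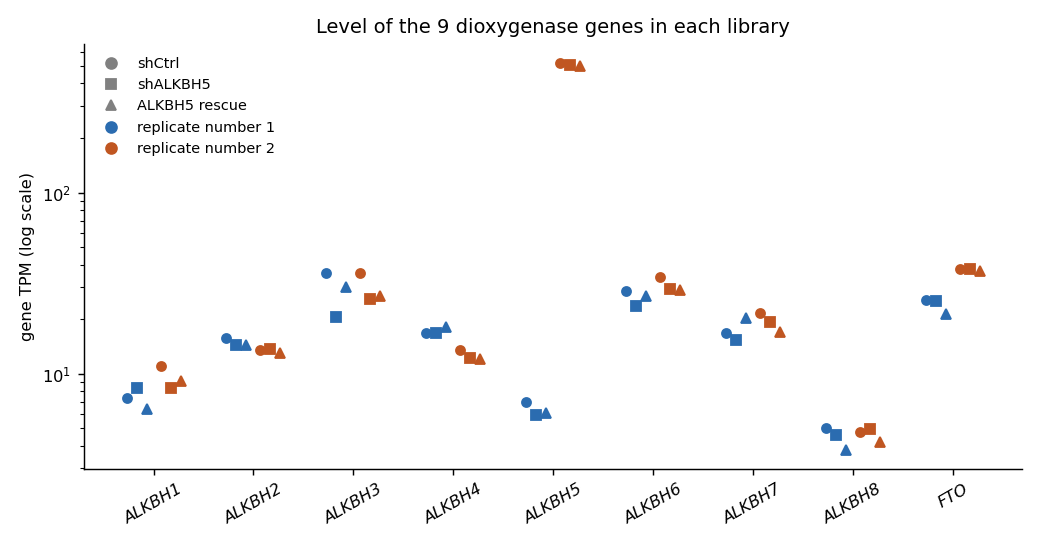
TPM (a length-scaled share of the library, log scale) of the 9 genes in each of the 6 libraries, with colours for the replicate number and markers for the labelled group. ALKBH5 moves from about the level of ALKBH1 in number 1 (6.32 TPM on average) to far above every other member in number 2 (509 TPM).

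Levels of different genes were compared in TPM, which accounts for transcript length. In the libraries numbered 1, ALKBH3 averaged 28.95 ± 7.79 TPM (SD, n = 3), ALKBH6 26.3 ± 2.43 and FTO 24.0 ± 2.40, and the ranges of neighbours in this order overlapped. ALKBH7 (17.4 ± 2.52) and ALKBH4 (17.2 ± 0.795) also overlapped, and ALKBH2 followed at 14.9 ± 0.728. ALKBH1 (7.37 ± 0.955) and ALKBH5 (6.32 ± 0.577) overlapped, and ALKBH8 was lowest at 4.47 ± 0.605. The low end thus held both an RNA demethylase, ALKBH5, and a transfer RNA enzyme, ALKBH8.

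In the libraries numbered 2, ALKBH5 led at 509 ± 7.67 TPM (SD, n = 3), and FTO came next at 37.4 ± 0.567. ALKBH6 (30.9 ± 2.80) and ALKBH3 (29.5 ± 5.56) overlapped, ahead of ALKBH7 at 19.3 ± 2.27. ALKBH2 (13.4 ± 0.371) and ALKBH4 (12.6 ± 0.755) overlapped, followed by ALKBH1 at 9.48 ± 1.36 and ALKBH8 at 4.64 ± 0.407. Among the other 8 members, ALKBH8 was lowest and ALKBH1 next to lowest in both sets. ALKBH5 made up 4.40%, 4.39% and 4.11% of the family's summed TPM in number 1 (shCtrl, shALKBH5, ALKBH5 rescue) and 75.03%, 77.0% and 77.2% in number 2. The sum of the other 8 members was 129 to 152 TPM in number 1 and 148 to 172 in number 2. Of the RNA m6A demethylases, summed over all transcripts, ALKBH5 stood at 0.235 to 0.285 times the FTO level in number 1 and at 13.4 to 13.7 times in number 2. These ratios depend on the transcripts summed. The coding transcripts of FTO alone held 10.9 to 13.7 TPM in number 1 and 13.3 to 20.9 in number 2. Those of ALKBH5 held 5.19 to 6.67 and 502 to 517 TPM. Among all genes ranked by TPM, ALKBH5 was at place 9229 to 9709 in number 1 and 239 to 243 in number 2.

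The order within the family depended on which transcripts were summed. With protein-coding transcripts only, the averages in number 1 were 17.4 TPM for ALKBH7, 14.7 for ALKBH2, 14.2 for ALKBH3, 12.0 for FTO, 11.5 for ALKBH6 and 9.02 for ALKBH4. ALKBH1, ALKBH3, ALKBH4, ALKBH6 and FTO were each lower by more than 1.5 times on this sum. ALKBH5 stayed near the bottom in number 1, at 5.71 TPM, and on top in number 2, at 509.

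Of the 9 members, 4 passed the threshold between numbers (44.4%), next to 45.4% of all genes tested, so the family's share was close to that of all genes. ALKBH5 and FTO were higher in number 2 (22.8% of all genes were called higher), and ALKBH4 and ALKBH2 lower (22.6% lower). CPM ranges did not overlap for 5 members, these 4 and ALKBH1, beside 57.7% of all genes.

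FTO, the other m6A demethylase, measured 33.0 CPM in shCtrl, 34.2 in shALKBH5 and 29.6 in ALKBH5 rescue among the libraries numbered 1. In number 2 it measured 47.6, 44.0 and 43.5 CPM. All 3 libraries numbered 2 were above all 3 numbered 1, by 0.48 on the log2 scale (SE 0.10, 95% interval 0.26 to 0.71, edgeR adjusted p = 0.0036). The direction of FTO was that of ALKBH5, at a far smaller size: 1.40-fold against 75.6-fold. FTO kept its call in DESeq2 (adjusted p = 0.0035) and when effective transcript length entered as an offset (edgeR adjusted p = 0.0058). No single FTO transcript passed in either tool. The coding ENST00000268349.7 had an adjusted p of 0.15 in edgeR and 0.22 in DESeq2, and ENST00000637562.1 had 0.11 and 0.062. Coding transcripts alone overlapped between numbers, at 10.9 to 13.7 TPM in number 1 and 13.3 to 20.9 in number 2.

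ALKBH4, the actin demethylase, measured 21.5 CPM in shCtrl, 20.4 in shALKBH5 and 22.8 in ALKBH5 rescue in number 1, and 14.5, 13.8 and 12.2 CPM in number 2. Every library numbered 2 was below every library numbered 1, with a log2 difference of -0.68 (SE 0.12, 95% interval -0.96 to -0.41, edgeR adjusted p = 0.0018). No single ALKBH4 transcript passed in either tool. The coding ENST00000292566.3 had an adjusted p of 0.16 in edgeR and 0.17 in DESeq2. Exons of ALKBH4 share 584 of their 2312 bases with ORAI2, a calcium channel subunit gene on the opposite strand. ORAI2 went the other way, from 49.8 to 51.9 CPM in number 1 up to 76.7 to 85.8 in number 2 (log2 0.65, SE 0.09, edgeR adjusted p = 0.00042). The sources used here do not say whether strand was used, so reads from the shared bases could be assigned to either gene, and the part of this in the ALKBH4 difference was not tested.

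ALKBH2, the nuclear repair enzyme for alkylated double-stranded DNA, measured 10.9 CPM in shCtrl, 10.2 in shALKBH5 and 10.99 in ALKBH5 rescue in number 1, and 8.46, 8.35 and 7.44 in number 2. It was lower in number 2 by a log2 difference of -0.40 (SE 0.13, 95% interval -0.71 to -0.10, edgeR adjusted p = 0.033). This call was lost in DESeq2 (adjusted p = 0.19), with the effective length offset (log2 -0.25, edgeR adjusted p = 0.24), without a filter (edgeR adjusted p = 0.054) and when any 1 library was left out (edgeR adjusted p from 0.072 to 0.13). The direction was the same in each of these.

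The other 5 members did not pass the threshold between numbers. ALKBH1, a transfer RNA demethylase, ranged from 11.5 to 12.2 CPM in number 1 and from 13.2 to 16.0 in number 2, without overlap (log2 0.24, SE 0.12, edgeR adjusted p = 0.14). ALKBH3, the single-strand repair enzyme, overlapped at 14.1 to 18.2 and 15.7 to 22.3 CPM (log2 0.15, SE 0.13). ALKBH6, whose substrate is less well defined, ran from 19.5 to 24.9 and from 20.2 to 25.3 CPM, and its log2 difference of -0.00 has a 95% interval of -0.27 to 0.27. ALKBH7 had 12.6 to 16.9 and 12.9 to 15.2 CPM (log2 -0.03, 95% interval -0.35 to 0.30). ALKBH8 had 8.03 to 10.7 and 8.03 to 8.87 CPM (log2 -0.18, 95% interval -0.48 to 0.13). These intervals exclude 2-fold differences in either direction but leave room for smaller ones.

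**Figure D2:**
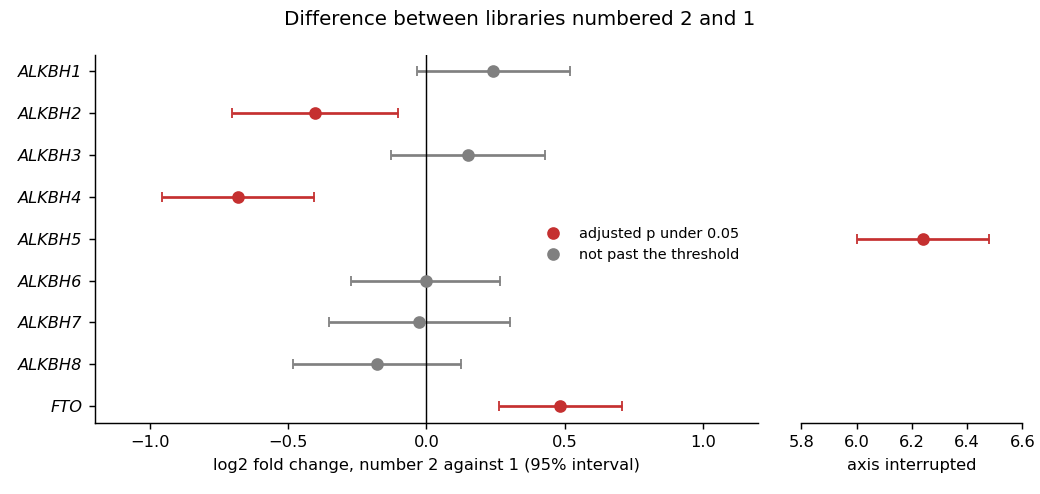
Log2 fold change of each member between the libraries numbered 2 and 1, with 95% intervals from edgeR (n = 3 libraries per number), on an interrupted axis. ALKBH5 stands at 6.24, while the other members lie between -0.68 (ALKBH4) and 0.48 (FTO).

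ALKBH5 has 3 quantified transcripts (ENSG00000091542.8, GRCh38 chromosome 17, 18183078 to 18209954, plus strand), and 1 of them carried the difference. The coding transcript ENST00000399138.4 has 4 exons and 2748 bases, of which 1182 are coding and 775 lie in no other ALKBH5 transcript. Its estimated counts were 190, 198 and 277 in number 1 (shCtrl, shALKBH5, ALKBH5 rescue) and 20605, 19109 and 15732 in number 2. It was the only 1 of 58909 transcripts that edgeR called between numbers (0.0017%), with a log2 difference of 6.43 (SE 0.08, edgeR adjusted p = 0.0066). At an unadjusted p under 0.05, edgeR listed 12218 transcripts. DESeq2 called 5027 of the 41777 transcripts to which it gave an adjusted p (12.0%). No transcript was called by edgeR once any 1 library was left out. Its annotated start, base 18184239, lies 411 bases after the RefSeq start at 18183828, so the window printed above precedes that annotated start.

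The retained-intron transcript ENST00000490106.1 lies at the 3′ end of the gene (18206561 to 18209954) and has 254 bases of its own. It held 6.91, 18.5 and 34.8 estimated counts in number 1 and 2.77, 1.37 and 1.42 in number 2, so it was not high where the coding transcript was high. Its share of ALKBH5 counts in number 1 was 3.42% in shCtrl (95% Wilson interval 1.69% to 6.98%), 8.54% in shALKBH5 (5.68% to 13.3%) and 11.1% in ALKBH5 rescue (8.18% to 15.2%). In number 2 its share was 0.013% or less. The log2 difference of -3.29 (SE 0.95) did not pass edgeR's threshold (adjusted p = 0.18). The remaining coding transcript, ENST00000541285.1, has an open reading frame of 159 bases, and held 5.45 estimated counts in shCtrl numbered 1, 5.57 in shALKBH5 numbered 2 and 0 in the other 4 libraries. Wilson intervals cover counting error only, not PCR copies or the division of reads among transcripts.

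**Figure D3:**
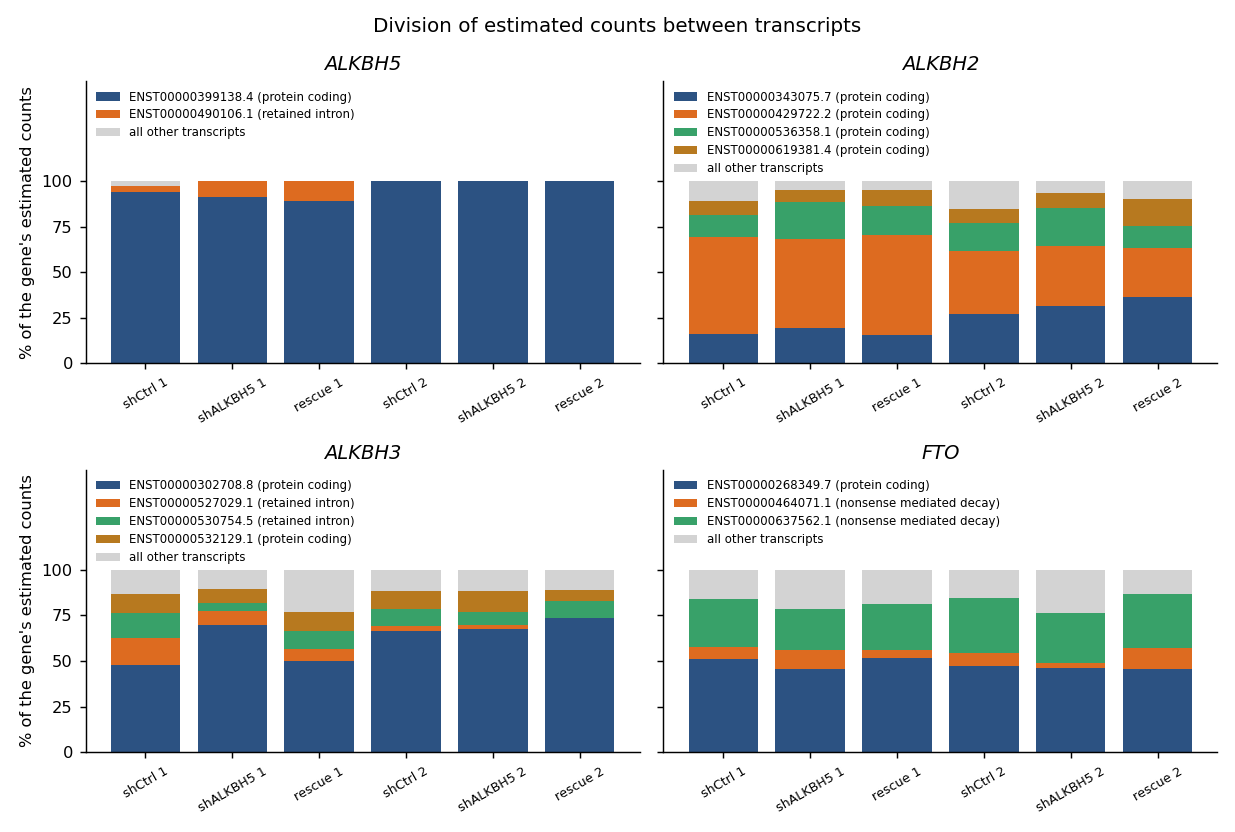
Share of estimated counts (percent) assigned to the main transcripts of ALKBH5, ALKBH2, ALKBH3 and FTO in each library, with all other transcripts in grey. For ALKBH5 the coding transcript ENST00000399138.4 holds 88.9% to 93.9% in the libraries numbered 1 and at least 99.96% in those numbered 2.

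The other 8 members drew on several transcripts. In all, the family has 82 quantified transcripts, of which 26 held at least 10% of their gene's counts in some library and 47 passed the filter. ALKBH2 divided its counts mainly among 3 coding transcripts. ENST00000429722.2 held 53.3%, 48.7% and 54.9% in number 1 (shCtrl, shALKBH5, ALKBH5 rescue) and 34.6%, 32.9% and 26.9% in number 2. ENST00000343075.7 held 16.3%, 19.4% and 15.8% in number 1 and 27.2%, 31.3% and 36.5% in number 2. ENST00000536358.1 held 11.9% to 21.0% and ENST00000619381.4 6.82% to 15.1% over the 6 libraries. The shares of the first and second did not overlap between numbers, but the difference of ENST00000429722.2 (log2 -1.08, SE 0.26) missed edgeR's threshold (adjusted p = 0.14). How many of all transcripts had such a split was not counted.

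FTO had 45.4% to 51.6% of its counts on the coding ENST00000268349.7 and 22.5% to 30.1% on ENST00000637562.1, annotated as a target of nonsense-mediated decay. ENST00000464071.1, annotated likewise, held 2.37% to 11.5%. ALKBH6 had the lowest coding share of the 9 in 5 of the 6 libraries, and FTO was slightly lower in ALKBH5 rescue numbered 2 (51.6%). The coding share of ALKBH6 was 40.6%, 31.4% and 31.4% in number 1 and 47.6%, 45.0% and 51.8% in number 2. Its retained-intron ENST00000471323.1 alone held 28.3% to 43.5%, and the coding ENST00000378875.7 and ENST00000252984.11 held 17.5% to 35.3% and 1.92% to 18.6%. In ALKBH3 the coding share was 63.0%, 80.2% and 70.1% in number 1 and 81.6%, 89.6% and 86.0% in number 2. The main coding transcript of ALKBH3, ENST00000302708.8, held 47.8% to 73.7%, and the coding ENST00000532129.1 5.77% to 11.3%. Its retained-intron transcripts ENST00000527029.1 and ENST00000530754.5 held 0.0% to 14.6% and 4.13% to 13.8%. For both ALKBH3 and ALKBH6, every library numbered 2 had a higher coding share than every library numbered 1. This is a description with no test of its own, and the share of all genes with such a split was not counted. The single coding transcript of ALKBH1, ENST00000216489.7, held 59.2% to 80.5%, and that of ALKBH4, ENST00000292566.3, 64.2% to 73.8%. Most of the rest lay on transcripts annotated for nonsense-mediated decay, ENST00000557057.5 for ALKBH1 (18.1% to 37.3%) and ENST00000490528.1 for ALKBH4 (24.3% to 33.8%). ENST00000245812.7 held 86.1% to 98.9% of ALKBH7 counts, and ENST00000596657.1, also coding, 0.739% to 10.8%. In ALKBH8 the coding ENST00000428149.6 and ENST00000417449.6 held 40.8% to 73.3% and 15.6% to 39.5%. Its nonsense-mediated decay transcripts ENST00000260318.6 and ENST00000393100.3 reached at most 14.8% and 10.2%.

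The genes around ALKBH5 on chromosome 17 showed no shared direction between numbers. Distances are between gene starts. On one side, MYO15A, an unconventional myosin gene 74.4 kb away, was at 0.579 to 1.66 CPM and did not pass the threshold (log2 0.80, SE 0.30, edgeR adjusted p = 0.053). DRG2, a GTP-binding protein gene 95.2 kb away, was lower in number 2 (log2 -1.05, SE 0.10, edgeR adjusted p = 6.66e-05). GID4, a ubiquitin ligase subunit gene 143.8 kb away, was higher (log2 1.79, SE 0.17, edgeR adjusted p = 5.12e-05). On the other side, LLGL1, FLII and MIEF2 had log2 differences of -0.07 (SE 0.12), 0.00 (SE 0.09) and 0.19 (SE 0.25), and none passed. None of the 6 approached the size of the ALKBH5 difference.

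**Figure D4:**
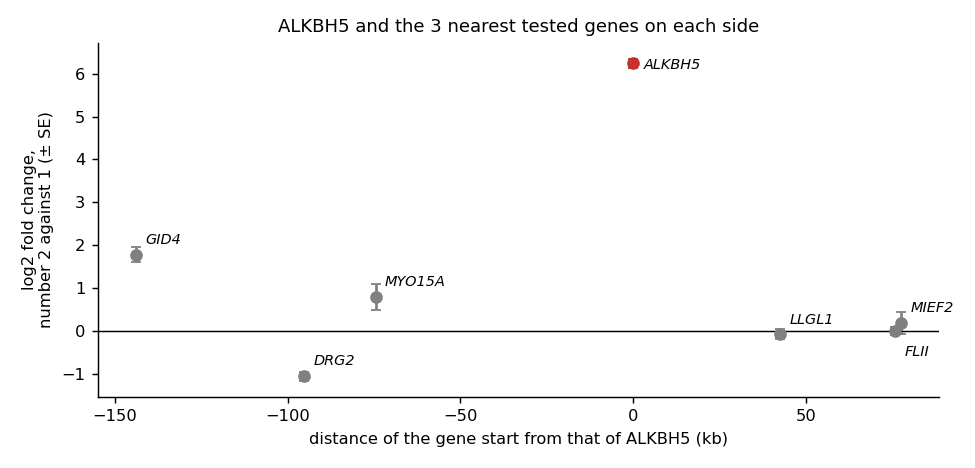
Log2 fold change between the libraries numbered 2 and 1, with bars of 1 SE, for ALKBH5 and the 3 nearest tested genes on each side, against the distance of their starts from that of ALKBH5 in kb. ALKBH5 stands at 6.24, and the neighbours lie between -1.05 (DRG2) and 1.79 (GID4).

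The profiles most like that of ALKBH5 were sought by the root mean squared distance between log2 CPM values (prior count 2), each gene centred on its mean over the 6 libraries, over the 10808 genes that averaged 5 CPM or more. The 5 nearest were RNASE6 (distance 1.90), an antimicrobial ribonuclease of myeloid cells, IFIT2 (1.94), an interferon-induced protein, NEURL1B (1.97), a ubiquitin ligase, CXCL10 (1.98), an interferon-induced chemokine, and VIT (2.01), a matrix protein. Pearson's r with ALKBH5 over the 6 libraries, which share the split by number, was 0.986 to 0.998. Their own differences between numbers were 2.27 to 2.49 on the log2 scale, far below the 6.24 of ALKBH5. The list thus restates the split by number and shows no close likeness to ALKBH5. RPL21P16 and AC010487.3, which rose more, averaged under 5 CPM and were outside this search. RNASE6, the nearest, measured 1.45, 1.54 and 2.08 CPM in number 1 and 11.7, 8.19 and 9.47 CPM in number 2 (shCtrl, shALKBH5, ALKBH5 rescue).

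Between the labelled groups, no member and no gene passed edgeR's threshold when replicate number was left out of the model. Each of the 3 comparisons had 0 of 14497 genes called (0.0%), and DESeq2 called 0 as well. At an unadjusted p under 0.05, edgeR listed 38 genes for shALKBH5 against shCtrl, 43 for ALKBH5 rescue against shALKBH5 and 46 for ALKBH5 rescue against shCtrl, and with the number as a block 347, 290 and 239. After adjustment with the block, 1 gene was called in the first (0.0069%), 0 in the second and 1 in the third (0.0069%). That gene was the pseudogene RPL21P16 both times, named after its value was seen, and both comparisons share the shCtrl libraries, in which it was at 0.

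ALKBH5 itself differed between shALKBH5 and shCtrl by a log2 value of -0.13 without the block, with an SE of 2.48 and a 95% interval of -6.21 to 5.95. With the block, which compares libraries of the same number, the value was -0.17 (SE 0.11, 95% interval -0.42 to 0.08). The difference within number 1 was -0.23 and within number 2 -0.13. The blocked interval excludes a lowering of summed ALKBH5 RNA by 2-fold in the libraries labelled shALKBH5. This sum over transcripts does not separate RNA of the cells' own gene from RNA of an introduced construct. For ALKBH5 rescue against shALKBH5, the blocked value was 0.02 (95% interval -0.23 to 0.26), and against shCtrl it was -0.15 (95% interval -0.40 to 0.10). With the numbers kept apart, no loss or return of ALKBH5 RNA along the labels was detectable.

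The other members showed differences of at most 0.41 on the log2 scale between shALKBH5 and shCtrl. ALKBH3 was at 14.1 and 15.7 CPM in shALKBH5 (numbers 1 and 2), 17.4 and 22.3 in shCtrl, and 18.2 and 17.3 in ALKBH5 rescue. Both shALKBH5 libraries were below all 4 others in CPM, a layout whose share over all genes was not counted. In coding transcripts alone it was not kept. There shALKBH5 numbered 2, at 19.7 TPM, was above shCtrl numbered 1 (14.0) and both ALKBH5 rescue libraries (15.9 and 18.8). The other transcripts held 7.88 and 6.15 TPM in shALKBH5 (numbers 1 and 2), 22.1 and 13.6 in shCtrl, and 14.3 and 7.93 in ALKBH5 rescue. For the gene sum, the log2 value against shCtrl was -0.41 (SE 0.22) without the block and -0.41 (SE 0.15, 95% interval -0.75 to -0.07) with it. The blocked edgeR p of 0.024 became 0.98 after adjustment, and the unblocked adjusted p was 1.00. ALKBH5 rescue against shALKBH5 gave 0.25 (SE 0.22) and, with the block, 0.26 (SE 0.15). These comparisons share the shALKBH5 libraries, so their values are not separate observations. With the effective length offset the value against shCtrl was -0.67, also not called.

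ALKBH6 had the same layout at a smaller size. It measured 19.5 and 20.2 CPM in shALKBH5, 22.4 and 25.3 in shCtrl, and 24.9 and 21.2 in ALKBH5 rescue. Both shALKBH5 libraries were again the lowest of the 6 in CPM, with a log2 value of -0.27 (SE 0.20) against shCtrl and 0.21 (SE 0.20) for ALKBH5 rescue against shALKBH5. In TPM this layout was not kept: shALKBH5 numbered 2, at 29.5, was above shCtrl numbered 1 (28.4) and both ALKBH5 rescue libraries (26.7 and 29.1). With the effective length offset the value for ALKBH5 rescue against shALKBH5 was 0.11. ALKBH8 went the other way, with 10.7 and 8.87 CPM in shALKBH5 against 8.03 and 8.03 in shCtrl, and 9.86 and 8.30 in ALKBH5 rescue (log2 0.29, SE 0.24, shALKBH5 against shCtrl). With the effective length offset the ALKBH8 value turned to -0.07, so its direction rests on the scale. None of these passed (edgeR adjusted p = 1.00 each).

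In shALKBH5 against shCtrl, CPM ranges did not overlap for these 3 of the 9 members, beside 17.5% of all genes tested. In ALKBH5 rescue against shALKBH5 this held for ALKBH3 and ALKBH6 (11.9% of all genes), and in ALKBH5 rescue against shCtrl for ALKBH8 (10.1%). The median log2 value over the 9 members was -0.07 in shALKBH5 against shCtrl, next to -0.03 over all genes. It was -0.00 next to 0.01 for ALKBH5 rescue against shALKBH5, and -0.07 next to -0.01 for ALKBH5 rescue against shCtrl. Over the members, the blocked 95% intervals spanned -0.75 to 0.65, -0.48 to 0.60 and -0.51 to 0.55 in these comparisons, so a 2-fold difference lay outside each of them.

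FTO, the other m6A demethylase, was not called in any labelled comparison. The blocked log2 values were -0.03 (SE 0.12) for shALKBH5 against shCtrl, -0.11 (SE 0.12) for ALKBH5 rescue against shALKBH5 and -0.14 (SE 0.12) for ALKBH5 rescue against shCtrl. For ALKBH1, ALKBH2, ALKBH4 and ALKBH7 the shALKBH5 against shCtrl values were -0.15 (SE 0.24), -0.06 (SE 0.30), -0.07 (SE 0.40) and 0.03 (SE 0.24) without the block.

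**Figure D5:**
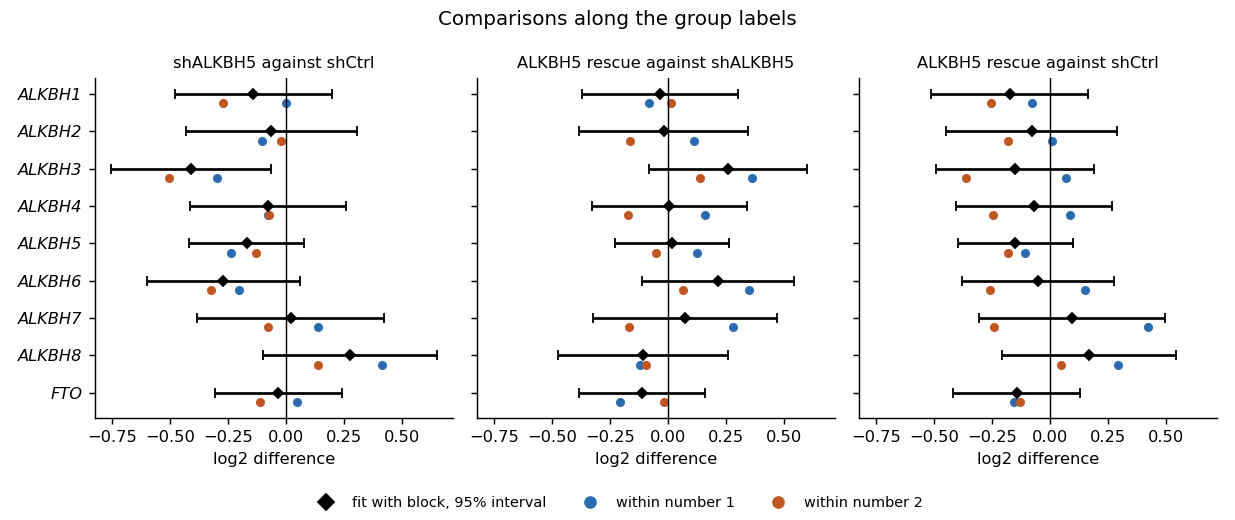
Log2 difference of each member in the 3 comparisons of labelled groups. Diamonds with 95% intervals give the fit with replicate number as a block (n = 2 libraries per group) and dots the difference within each number. All values lie between -0.50 and 0.42, and the blocked ALKBH5 interval in shALKBH5 against shCtrl runs from -0.42 to 0.08.

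Genes tied to the family by function were read from the same fit of number 2 against number 1, in 4 lists. Of 11 partners of family proteins, 2 were higher, 2 lower and 7 not called, with a median log2 of 0.02 next to 0.01 over all genes. Over all genes 22.8% were higher and 22.6% lower, 45.4% in all, so the counts here are no result about the list. TRMT112, the cofactor of ALKBH8, was lower (log2 -0.58, edgeR adjusted p = 0.00093), as was ASCC2 (-0.36, 0.0062), part of the ASCC complex that works with ALKBH3. PCNA, the sliding clamp that binds ALKBH2, was higher (0.42, 0.014), and so was USP9X (0.46, 0.025), a deubiquitinase that acts with ALKBH3. MGMT and MPG, which repair alkylated DNA by other routes, were not called (log2 0.16 and -0.07).

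Another list held 11 genes for enzymes, or for members of enzyme complexes, that write marks which the family removes or acts beside. Of these, 6 were lower in number 2, none was higher and 5 were not called. Their median log2 was -0.36 next to 0.01 over all genes, of which 22.6% were lower, 22.8% higher and 45.4% called in all. The list was not tested as a set. The members with the smallest p were TRMT61A (log2 -1.06, edgeR adjusted p = 6.66e-05), a transfer RNA m1A methyltransferase subunit, NSUN2 (-0.55, 0.00052), a cytosine methyltransferase, METTL16 (-0.62, 0.0014), an m6A methyltransferase, and TRMT10C (-0.53, 0.0032), of the mitochondrial transfer RNA methyltransferase. METTL3, METTL14 and WTAP, of the core m6A writer complex, were not called (log2 -0.10, 0.05 and 0.24).

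Of 12 genes that make or use 2-oxoglutarate, the cosubstrate, or 2-hydroxyglutarate, 2 were higher, 3 lower and 7 not called, with a median log2 of 0.02. The count is close to the share over all genes (45.4% called, 22.8% higher and 22.6% lower) and is no result about the list. The mitochondrial isocitrate dehydrogenase subunits IDH3A (log2 -0.92, edgeR adjusted p = 5.48e-05) and IDH3B (-0.81, 0.00019) were lower, as was GLUD1 (-0.42, 0.0034), the glutamate dehydrogenase. GOT2, the mitochondrial aspartate aminotransferase, was higher (0.58, 0.0011). In the 3 comparisons of labelled groups, none of the genes of these 4 lists passed edgeR's threshold without the block.

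The libraries held 14534386 to 24857373 estimated counts, of which mitochondrial genes took 2.92% to 3.55%. All 12 myeloid markers were expressed, at a summed 3465 to 4229 CPM. T and NK cell markers summed to 15.1 to 22.3 CPM, with 6 of 7 under 1 CPM in every library, B cell markers to 6.95 to 13.5 CPM, with 2 of 5 under 1 CPM in every library, and the 6 erythroid and megakaryocyte markers to at most 0.343. All 7 epithelial and fibroblast markers were under 1 CPM in every library. The myeloid sums were 3465 to 3845 CPM in number 1 and 3854 to 4229 in number 2, a gap carried by LYZ, lysozyme (898 to 1006 and 1251 to 1453 CPM). Without LYZ, a sum added after its values were seen, they overlapped at 2565 to 2839 and 2567 to 2776 CPM. Over all genes tested, 57.7% had no overlap of CPM between numbers, so the marker counts that follow are no result about these markers. Of the 12 markers, 4 were higher in every library numbered 2 than in every one numbered 1 (LYZ, CD33, PTPRC and AZU1). Another 3 were lower and 5 overlapped. The lower ones were CD14, a monocyte receptor subunit (210 to 239 and 131 to 145 CPM), the integrin ITGAM (283 to 299 and 175 to 200) and MPO, myeloperoxidase (2.40 to 2.97 and 1.63 to 1.70). The sums for T and NK (20.2 to 22.3 and 15.1 to 19.2 CPM) and B cell markers (6.95 to 8.68 and 11.3 to 13.5) did not overlap between numbers. The part of any of these in the family's differences was not tested.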

How the data were processed

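RNA was oligo-dT selected, randomly primed and PCR amplified, per the labels' protocols. Reads were handled with CASAVA and kallisto 0.43.1 on the build hg38, per the submitters' processing notes. The deposited files give estimated counts and TPM for 179973 transcripts. The sources used here give no options, strand use or molecular identifiers. No deposited value was altered other than by summing and rounding.

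Estimated counts were summed per gene with GENCODE release 29 (GRCh38), which matched 163714 transcripts (91.0%), and rounded. The 16259 unmatched transcripts held 3.13% to 3.32% of counts per library and were left out. Total estimated counts of 14534386 to 24857373 per library set the precision. Samples were grouped by title, and no group was taken from values. Tests used edgeR 4.0.16 in R 4.3.3 (TMM, filterByExpr, quasi-likelihood F test, all 6 libraries), adjusted by Benjamini-Hochberg, with calls at 0.05. Group comparisons had 1 coefficient per group (3 residual degrees of freedom), and the number comparison had group and number (2). An SE is the absolute log2 fold change over the square root of F. CPM values use TMM-adjusted library sizes, and TPM values are the deposited ones, summed. Interval bounds use the t distribution.

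Members, lists and tests were chosen with earlier results of these data known. Named were all 9 members with transcripts of at least 10% of gene counts, the 3 tested neighbours on each side of ALKBH5, genes with overlapping exons, the 5 nearest profiles, and up to 4 genes per list by p. RPL21P16 and AC010487.3 were named outside this rule, as were ENST00000541285.1 and the list members given with values below the 4 smallest p. Besides ORAI2, the exon overlaps were PSPN with ALKBH7 (104 bases), SEC14L1P1 with ALKBH3 (75) and AC007347.2 with FTO (180), none of which passed the threshold or, for AC007347.2, the filter.

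The replicate numbers come from the titles. Deviations from group means correlated at 0.60 to 0.73 in all 6 same-numbered pairs (3 separate values, since 2 libraries per group mirror each other), so the numbers were treated as pairing the libraries. With the number in the model, the biological coefficient of variation fell from 27.7% to 10.6%. On simulated data for shALKBH5 against shCtrl (14497 genes, 200 changed), 0% of 2-fold and 33% of 4-fold changes were recovered without the block, and 81% and 97% with it. For number 2 against 1, 89% and 100% were recovered. In that simulation only the 200 changed genes differed between numbers, against 45.4% of genes called in the real data. Its recovery may therefore not hold for the real comparison. Unchanged genes were called 0 times without the block, 12 with it and 13 for number 2 against 1. Alternatives were RLE size factors, DESeq2 1.42.0, other filters, an offset for effective length, the replicate block, leaving out each library, and coding transcripts only for TPM.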

Additional observations from a re-analysis of the deposited data

How the results depend on the processing

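Replicate number as a block, which pairs same-numbered libraries, moved the count of called genes from 0 to 1 in shALKBH5 against shCtrl and in ALKBH5 rescue against shCtrl, and left it at 0 in ALKBH5 rescue against shALKBH5. It changed no call of a member, and its only change of direction was ALKBH5 in ALKBH5 rescue against shALKBH5 (0.0188). RLE size factors and a filter of at least 1 CPM in 2 libraries changed no count by over 1.5 times. The number comparison called 3915 to 6811 genes when 1 library was left out, falling to 3915 without shALKBH5 replicate 1 and 4030 without shALKBH5 replicate 2, and 4793 with DESeq2. Transcript calls were 0 to 0 with 1 library left out, and 5027 with DESeq2. ALKBH5, ALKBH4 and FTO kept their direction between numbers in every setting tried.

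Small values changed sign (log2). In ALKBH5 rescue against shALKBH5, ALKBH2 was 0.0114 with RLE size factors, 0.0127 with DESeq2, 0.0061 without a filter and 0.0066 with the effective length offset. With that offset, ALKBH3 between numbers was -0.0598, ALKBH4 in ALKBH5 rescue against shCtrl 0.0305, ALKBH6 between numbers 0.13, ALKBH7 -0.20 in shALKBH5 against shCtrl, -0.0343 in ALKBH5 rescue against shCtrl and 0.0394 between numbers, and ALKBH8 -0.0701 in shALKBH5 against shCtrl and -0.29 in ALKBH5 rescue against shCtrl. Without a filter, ALKBH6 and ALKBH7 between numbers were 0.0327 and 0.0102. The cause of these was not tested.

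Leaving out 1 library gave these log2 ranges where a sign changed. In shALKBH5 against shCtrl they were -0.33 to 0.069 for ALKBH1, -0.23 to 0.13 for ALKBH2, -0.38 to 0.23 for ALKBH4, -5.49 to 5.13 for ALKBH5, -0.11 to 0.18 for ALKBH7 and -0.29 to 0.25 for FTO. In ALKBH5 rescue against shALKBH5 they were -0.15 to 0.0746 for ALKBH1, -0.31 to 0.24 for ALKBH2, -0.48 to 0.41 for ALKBH4, -5.24 to 5.31 for ALKBH5, -0.14 to 0.24 for ALKBH7, -0.24 to 0.0333 for ALKBH8 and -0.41 to 0.16 for FTO. In ALKBH5 rescue against shCtrl they were -0.37 to 0.0339 for ALKBH1, -0.37 to 0.17 for ALKBH2, -0.34 to 0.0357 for ALKBH3, -0.55 to 0.34 for ALKBH4, -5.37 to 5.08 for ALKBH5, -0.17 to 0.0492 for ALKBH6, -0.11 to 0.27 for ALKBH7 and -0.46 to 0.15 for FTO. Between numbers they were -0.082 to 0.12 for ALKBH6 and -0.16 to 0.17 for ALKBH7. The ALKBH5 ranges arise because the group with 1 library left holds 1 number only, and that lone library was assumed to vary like the other groups.

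With 2 libraries per group, even 2-fold group differences had little chance of a call without the block. On the simulated data for shALKBH5 against shCtrl, that fit recovered 0% of 2-fold and 33% of 4-fold changes. For the less abundant members, 111 to 300 estimated counts per library (ALKBH8 and ALKBH1) limit the precision.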
